A study of Mus musculus with 8 samples.

Results

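ATP-binding cassette (ABC) transporters are membrane pumps that use ATP to move sterols, phospholipids, bile salts, conjugates, drugs and peptides across membranes. In the small intestine, pumps of the apical membrane return plant sterols and foreign compounds to the lumen, pumps of the basolateral membrane pass lipids and conjugates to the blood, and several half-transporters sit in mitochondria. Proteins of subfamilies E and F carry the same ATP-binding domains without a membrane part and act on ribosomes. Members were taken by symbol, as every row whose name begins with Abca, Abcb, Abcc, Abce, Abcf or Abcg and a digit. This gave 44 of the 17634 genes in the table: 15 of subfamily A, 9 of B, 10 of C, 1 of E, 3 of F and 6 of G. Subfamily D and the ABC genes known by other names (Cftr, Tap1 and Tap2) fall outside this rule and are described apart.

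Crypts of the small intestine were taken for RNA from irradiated C57BL/6N mice, 3 days post irradiation. Both groups were irradiated: 4 libraries came from wild-type mice and 4 from mice homozygous for loss of miR-29ab1 (miR-29ab1-/-), the locus of miR-29a and miR-29b-1. The labels do not say in which cells, or by which allele, the locus was removed, and there is no unirradiated group, so all differences are between genotypes in irradiated tissue. Libraries held 9481191 to 16231089 counts, and 12908 genes passed a filter on low counts and were tested, of which 47.3 percent were called (edgeR adjusted p below 0.05). Replicate 4 stood apart in both genotypes, with 3 and 1 counts summed over 4 Y-linked genes against 1285 to 2061 in the other 6 libraries. By these counts replicate 4 was female and the other libraries held male tissue. The crypt preparations held differentiated cells: all 25 enterocyte markers were called higher in the knockout, and their summed level lay between 3129 and 15650 CPM (counts scaled by library size and TMM factor) in wild type, against 37280 to 119600 CPM in knockout libraries. Among stem cell markers 6 of 9 fell and none rose. In bulk RNA more cells of a type and more RNA per cell cannot be told apart.

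The miRNAs of the deleted locus share their seed (bases 2 to 8) with miR-29c of the other miR-29 locus. That locus also holds Mir29b-2, whose mature miR-29b-3p has the same sequence as that of Mir29b-1 in the deleted locus. The sequences are shown here because the seed defines the sites searched below. They are mature sequences from RefSeq on GRCm38.p6, 5′ to 3′, with the seed in capitals.
mmu-miR-29a-3p: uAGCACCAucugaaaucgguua
mmu-miR-29b-3p: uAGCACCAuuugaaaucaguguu
mmu-miR-29c-3p: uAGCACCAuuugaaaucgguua
The match to this seed, TGGTGCT, was looked for on the transcript strand in the longest 3′ UTR annotated for each gene in GENCODE M21 on GRCm38. It was present in 5 of the 31 tested members (16.1 percent), against 15.5 percent of the 12648 tested genes with an annotated 3′ UTR. None of the other 13 members of the table held it. The 5 sites follow with up to 29 bases of transcript, the match in capitals, and the coordinates of the window.
Abcb6, chr1:75171770-75171798, minus strand: gtgtaggagttTGGTGCTagctattgtaa
Abcc3, chr11:94343324-94343352, minus strand: agaccctgtacTGGTGCTgtctgagtcca
Abce1, chr8:79684671-79684699, minus strand: taatgagttttTGGTGCTtttgaacatct
Abcf3, chr16:20561019-20561047, plus strand: tgggattgttcTGGTGCTcacaccctagc
Abcg5, chr17:84658289-84658317, minus strand: gtggggcaatgTGGTGCTtggacattgtg
Of these 5 genes, Abcg5 was called higher in the knockout, Abce1 was called lower, and Abcb6, Abcc3 and Abcf3 were not called. The match in Abcb6 alone is followed by an A, the base that completes the longest form of a seed site. A match is a run of letters and not a measured binding site.

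Knockout crypts had more transcript of the sterol pumps Abcg5, Abcg8 and Abca1 and of the drug and conjugate pumps Abcb1a, Abcc2 and Abcg2, and less of the ribosome-associated Abce1, Abcf1 and Abcf2. Not every gene of these kinds was called: the sterol exporter Abcg1 and the ribosome-associated Abcf3 were not. Of 31 tested members 18 were called (58.1 percent, against 47.3 percent of all genes tested). In the knockout 13 were higher (41.9 percent, against 24.2 percent of all genes) and 5 were lower (16.1 percent, against 23.1 percent). The CPM of the groups did not overlap in 19 of the 31 (61.3 percent, against 45.4 percent). At 4-fold or more 6 members rose (4.79 percent of all genes did so) and none fell (0.147 percent of all genes). Abcc6 is among the 13 and the 6, and passed the low-count filter only through its knockout libraries. The median log2 fold over tested members was 0.71, against 0.034 over all genes. Called members had edgeR adjusted p-values from 0.00108 to 0.0226.

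**Figure D1:**
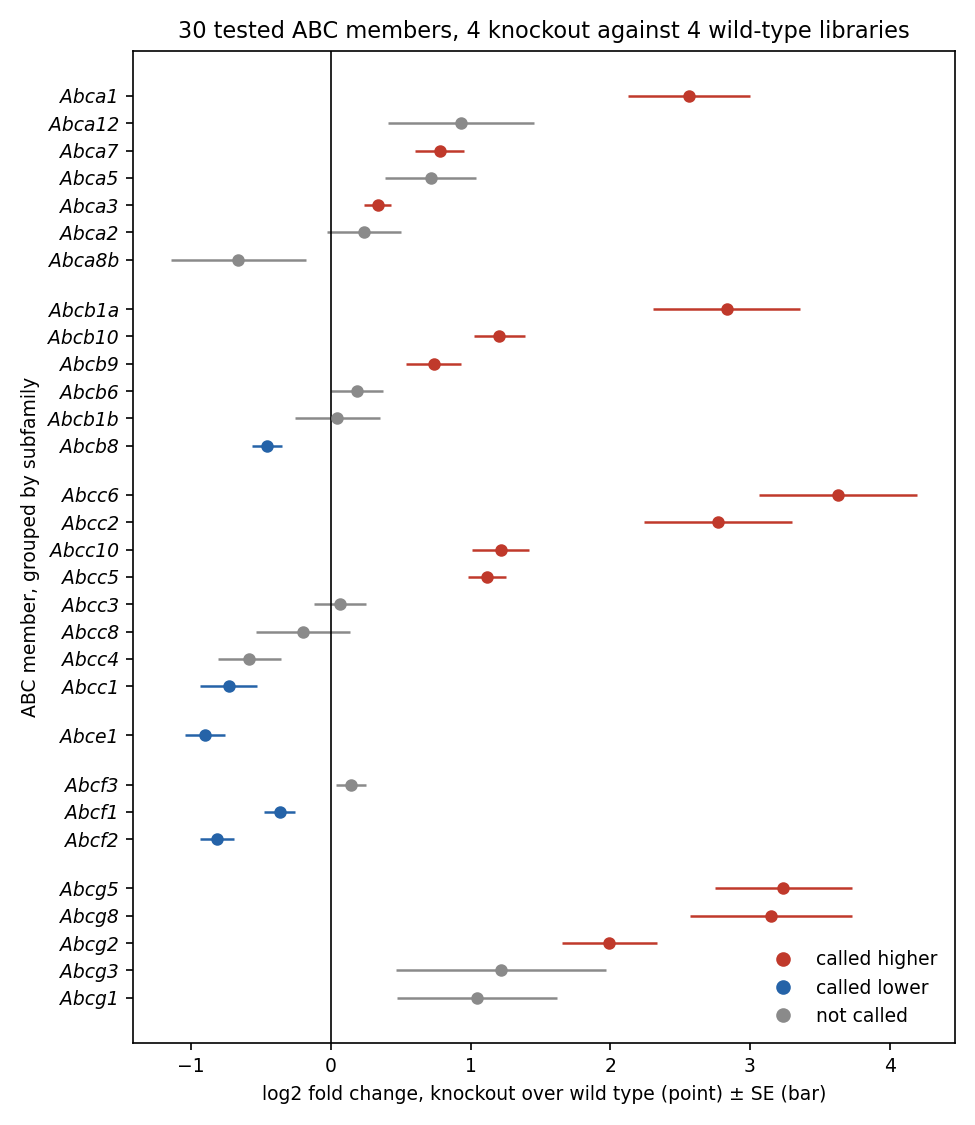
Log2 fold change of 30 tested ABC members, knockout over wild type (horizontal axis, point with a bar of ± SE), by subfamily A to G from top to bottom. Red points were called higher, blue lower and grey not called, from 4 libraries per genotype. All 3 called members of subfamily G lie at or right of 1.99, while no member of E or F lies right of 0.14.

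By subfamily, G stood highest and E and F lowest. In G, 3 of 5 tested members rose, none fell, and the median log2 fold was 1.99. In C, 4 of 8 rose and 1 fell (median 0.59), in B 3 of 7 rose and 1 fell (median 0.19), and in A 3 of 7 rose and none fell (median 0.71). With total-count scaling the call in A was kept by 1 member. In E and F together 3 of 4 fell and none rose, with a median of −0.59. These counts describe each subfamily, and differences between subfamilies were not tested.

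Abcg5 and Abcg8 are half-transporters that pair to pump cholesterol and plant sterols from the enterocyte into the lumen. Abcg5 (NCBI gene 27409) stood at 33.0, 37.3, 21.1 and 7.49 CPM in wild-type replicates 1 to 4 and at 331, 258, 128 and 212 CPM in knockout replicates 1 to 4. The groups did not overlap: the lowest knockout library was above the highest wild-type one, and wild-type replicate 4 was the lowest of all. It rose 9.43-fold, a log2 fold of 3.24 ± 0.49 (SE; edgeR adjusted p = 0.0014). Abcg8 (NCBI gene 67470) stood at 33.7, 36.7, 22.2 and 4.96 CPM in wild type and at 323, 241, 105 and 194 CPM in the knockout. It rose 8.89-fold (log2 3.15 ± 0.58, edgeR adjusted p = 0.00257), with the same library order as its partner in each genotype. Per length, Abcg5 reached 11.7 ± 5.96 FPKM in wild type and 89.6 ± 23.3 FPKM in the knockout (SD, n = 4), and Abcg8 7.47 ± 4.20 and 53.6 ± 17.0 FPKM.

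The pair lies head to head on chromosome 17, and the window is shown because a start site of each gene, 110 bases apart, falls within it. The 300-base promoter windows at these starts in RefSeq (GRCm38.p6, 250 bases before to 50 after each start) share 209 bases. The Abcg5 window, chr17:84682962-84683261, is printed on the minus strand, with matches to the GATA factor motif AGATAA (searched on both strands) in capitals.
Abcg5 promoter: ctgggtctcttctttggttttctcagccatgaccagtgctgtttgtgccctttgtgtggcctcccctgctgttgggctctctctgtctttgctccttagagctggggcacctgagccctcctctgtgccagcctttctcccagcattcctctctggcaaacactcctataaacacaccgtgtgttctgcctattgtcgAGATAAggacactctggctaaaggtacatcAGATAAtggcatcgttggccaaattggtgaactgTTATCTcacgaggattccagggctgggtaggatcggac
The window holds 3 matches, and all 3 lie in the stretch shared with this Abcg8 window. Another Abcg8 window in RefSeq, chr17:84676052-84676351, lies outside the printed window and held no match. Of 32851 promoter windows of this length, 11.2 percent held at least 1 match and 35 (0.106 percent) held 3 or more. Among 43 windows of 37 ABC genes with these subfamily names in RefSeq, 6 held at least 1, those of Abca12, Abca14, Abca16, Abcf2, Abcg5 and Abcg8. The HNF4 motif CAAAGTCCA, the palindromic HNF1 motif and the DR4 nuclear receptor motif were in none of these 43 windows (0.475, 0.0609 and 0.0152 percent of all windows), and the CDX motif TTTATGG was in that of Abcc12 alone (2.75 percent). The ratio of Abcg5 to Abcg8 FPKM was 1.52, 1.58, 1.46 and 2.35 in wild type and 1.59, 1.65, 1.88 and 1.69 in the knockout, so the genotypes overlapped.

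Abcg2, the breast cancer resistance protein, exports urate and many drugs at the apical membrane. It stood at 43.1, 44.0, 26.0 and 16.4 CPM in wild type and at 187, 116, 91.2 and 119.8 CPM in the knockout, with no overlap. It rose 3.98-fold (log2 1.99 ± 0.34, edgeR adjusted p = 0.00198). Of the other G members, Abcg1, a cholesterol exporter of macrophages and other cells, was not called, at 3.23 ± 1.14 CPM in wild-type and 6.65 ± 5.37 CPM in knockout libraries (SD, n = 4; edgeR adjusted p = 0.16). Its highest library was knockout replicate 3, at 13.8 CPM, and the groups overlapped. Abcg3, a rodent relative of Abcg2, was also highest there, at 4.09 CPM (edgeR adjusted p = 0.206). That library had the highest summed level of 7 T cell markers, 1480 CPM against 43.1 to 703 CPM in the other 7, and of 11 macrophage markers, 80.8 CPM against 12.9 to 77.4 CPM. Of these markers 0 of 6 and 0 of 10 tested were called, and their part in the values of Abcg1 and Abcg3 was not tested.

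Abca1 loads cholesterol and phospholipid onto apolipoprotein A-I and forms nascent HDL at the basolateral side of enterocytes. It stood at 27.3, 25.0, 11.5 and 7.05 CPM in wild type and at 155, 83.0, 72.3 and 106 CPM in the knockout. The groups did not overlap, and the gene rose 5.92-fold (log2 2.57 ± 0.44, edgeR adjusted p = 0.002). Abca7, a relative that moves phospholipids, stood at 29.5, 22.2, 26.9 and 21.9 CPM in wild type and at 43.4, 30.5, 49.1 and 49.6 CPM in the knockout, an increase of 1.72-fold (log2 0.78 ± 0.18, edgeR adjusted p = 0.00632). With total-count scaling its call was lost (edgeR adjusted p = 0.0885), as it was with limma on log2 FPKM plus 1 (limma adjusted p = 0.124). Abca3, known for loading surfactant lipid into lamellar bodies of the lung, differed least among the called members. It stood at 40.2, 42.0, 42.3 and 45.8 CPM in wild type and at 58.4, 48.5, 52.3 and 55.4 CPM in the knockout (1.26-fold, log2 0.33 ± 0.10, edgeR adjusted p = 0.0187). Its call was lost under 10 of 18 alternatives, among them the omission of replicate 1 or replicate 2 of the wild type, or of replicate 1 or replicate 4 of the knockout (edgeR adjusted p = 0.0646, 0.0501, 0.0874 and 0.0814).

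Other members of subfamily A were low or did not differ by the test. Abca2, of endosomes and lysosomes, stood at 19.2 ± 3.59 and 22.7 ± 9.08 CPM (SD, n = 4; edgeR adjusted p = 0.482). Abca5, Abca12 and Abca8b had mean levels below 0.4 FPKM in each genotype and log2 folds of 0.71 ± 0.32, 0.93 ± 0.53 and −0.66 ± 0.49, none of them called. The remaining 8 members of A, listed below, were dropped by the low-count filter.

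Abcb1a encodes P-glycoprotein, the multidrug pump of the apical enterocyte membrane, and Abcb1b its close tandem copy. Abcb1a (NCBI gene 18671) stood at 142, 126, 74.7 and 56.7 CPM in wild type and at 1175, 867.6, 200.05 and 598 CPM in the knockout. The groups did not overlap, although knockout replicate 3 lay near the wild-type range, and the gene rose 7.12-fold (log2 2.83 ± 0.52, edgeR adjusted p = 0.00268). Abcb1b stood at 16.6, 17.3, 18.2 and 25.6 CPM in wild type and at 13.7, 12.6, 21.6 and 32.6 CPM in the knockout, with overlap (log2 0.05 ± 0.30, edgeR adjusted p = 0.908). In FPKM the ratio of Abcb1a to Abcb1b was 7.45, 6.30, 3.53 and 1.92 in wild type and 74.2, 60.2, 8.01 and 15.9 in the knockout. All knockout ratios were above all wild-type ratios, with a mean difference of 2.70 on the log2 scale. The deposited counts of both genes were not whole in 7 of 8 libraries, and whether reads were divided between the near-identical copies was not tested, so the split between them is uncertain. Abcb4, the next gene of this cluster and a phosphatidylcholine floppase of bile, had 7 counts over all libraries, and Abcb11, the bile salt export pump of the liver, had 18.

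The mitochondrial half-transporters differed in direction. Abcb10, of the inner membrane and linked to haem synthesis, stood at 23.4, 24.2, 19.4 and 19.3 CPM in wild type and at 67.3, 48.5, 37.8 and 45.2 CPM in the knockout. Every knockout library was above every wild-type one (2.31-fold higher, log2 1.21 ± 0.18, edgeR adjusted p = 0.00139). Abcb8, linked to iron export from mitochondria, stood at 92.5, 81.0, 79.8 and 79.5 CPM in wild type and at 54.7, 67.0, 65.8 and 55.01 CPM in the knockout. It fell 1.37-fold (log2 −0.46 ± 0.11, edgeR adjusted p = 0.00845), with no overlap. Abcb6, a porphyrin transporter, stood at 14.2 ± 1.57 and 16.1 ± 3.92 CPM (edgeR adjusted p = 0.438). Abcb9, a peptide transporter of lysosomes, stood at 10.8, 8.25, 6.93 and 8.86 CPM in wild type and at 14.4, 16.9, 15.8 and 11.04 CPM in the knockout, 1.66-fold higher (log2 0.73 ± 0.19, edgeR adjusted p = 0.0127). Its call was lost with total-count scaling and in replicates 1, 2 and 4 alone (edgeR adjusted p = 0.0819 and 0.0567). It was also lost with limma on log2 FPKM plus 1 (limma adjusted p = 0.0806).

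**Figure D2:**
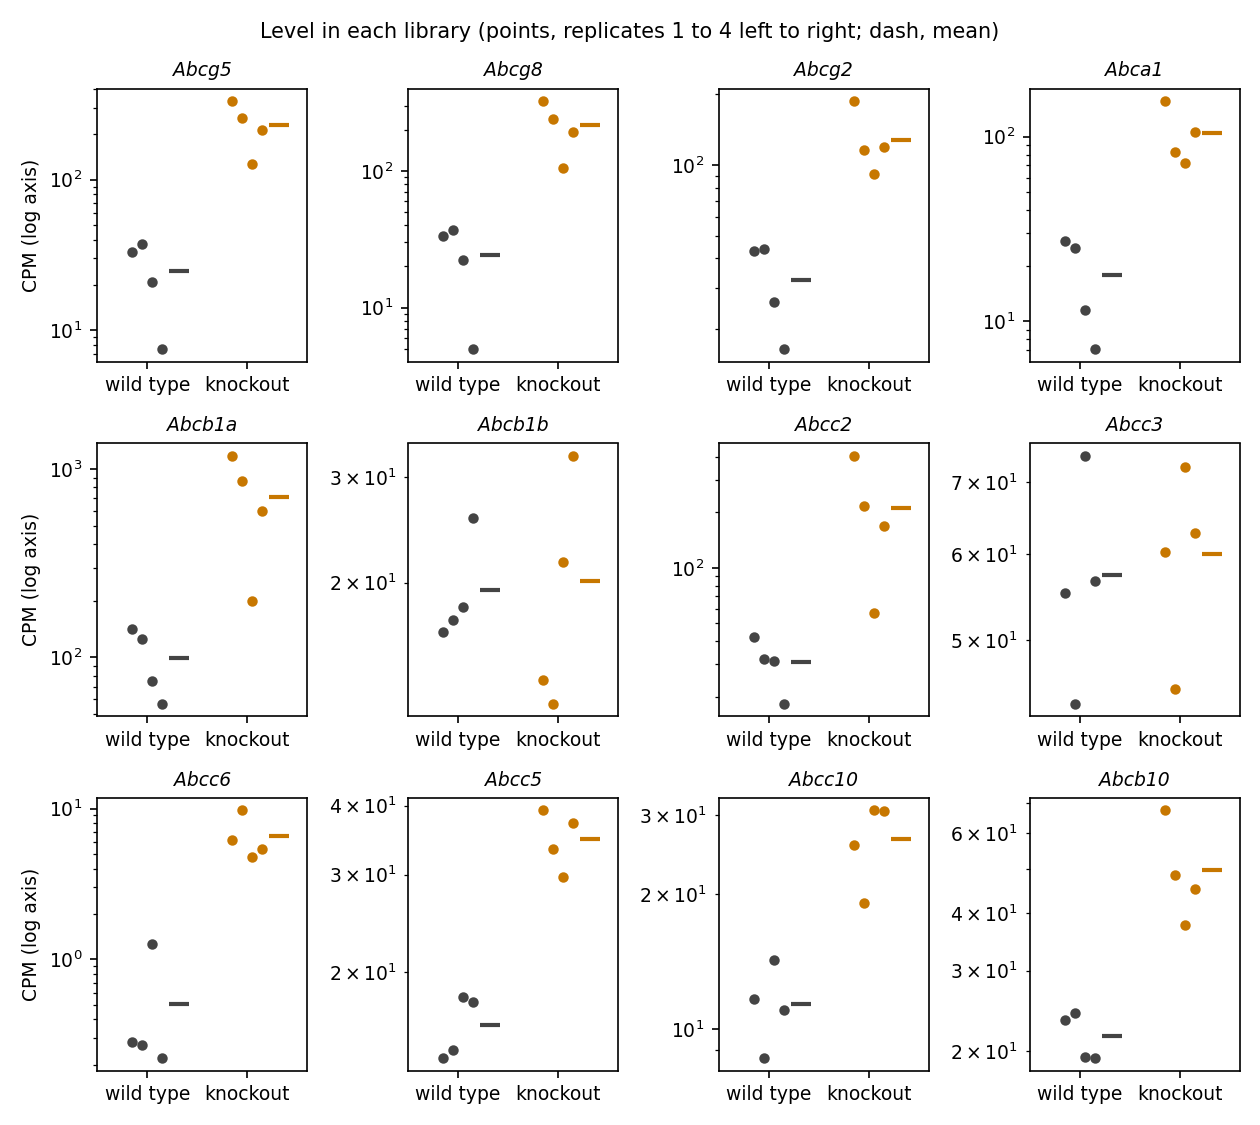
CPM (log axis, a scale of its own in each panel) of 12 ABC members in the 4 wild-type (grey) and 4 knockout (orange) libraries, with replicates 1 to 4 from left to right and a dash at the mean. In Abcb1b and Abcc3 the genotypes overlap, and in the other 10 panels every knockout point is above every wild-type point.

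Multidrug resistance proteins of subfamily C split by gene. Abcc2 pumps glucuronide, glutathione and sulphate conjugates across the apical membrane. It stood at 42.1, 32.2, 31.1 and 18.3 CPM in wild type and at 404, 216, 56.5 and 168 CPM in the knockout. The groups did not overlap, and the gene rose 6.83-fold (log2 2.77 ± 0.53, edgeR adjusted p = 0.00304). Abcc3, a basolateral pump of the same kinds of conjugate, stood at 55.2, 43.7, 74.0 and 56.7 CPM in wild type and at 60.3, 45.1, 72.3 and 62.8 CPM in the knockout (log2 0.07 ± 0.19, edgeR adjusted p = 0.793). In FPKM the ratio of Abcc2 to Abcc3 was 0.705, 0.684, 0.391 and 0.301 in wild type and 6.21, 4.46, 0.725 and 2.48 in the knockout. Every knockout ratio was above every wild-type ratio, although knockout replicate 3 and wild-type replicate 1 nearly met. The 3 gene pairs whose ratios are given here were chosen after their values were seen, so the ratios are a description with no test.

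Abcc6, whose activity releases ATP from cells and yields the mineralisation inhibitor pyrophosphate, had the largest fold of any tested member and a low level. It stood at 0.282, 0.269, 1.25 and 0.220 CPM in wild type and at 6.18, 9.72, 4.79 and 5.43 CPM in the knockout, which are 4, 3, 21 and 4 counts and 72, 110, 48 and 58 counts. It rose 12.4-fold (log2 3.63 ± 0.57, edgeR adjusted p = 0.0015), and without wild-type replicate 3, the only wild-type library above 4 counts, the fold was 24.7. Abcc6 passed the low-count filter only through its knockout libraries, where it is high, so its fold and test carry that selection. Abcc5, an exporter of cyclic nucleotides and haem, stood at 13.9, 14.4, 18.1 and 17.7 CPM in wild type and at 39.2, 33.4, 29.7 and 37.1 CPM in the knockout. It rose 2.17-fold with the smallest adjusted p of the members (log2 1.12 ± 0.14, edgeR adjusted p = 0.00108), and its libraries were close within each genotype. Abcc10, a drug and conjugate exporter, stood at 11.7, 8.61, 14.3 and 11.01 CPM in wild type and at 25.7, 19.1, 30.7 and 30.7 CPM in the knockout. It rose 2.32-fold (log2 1.21 ± 0.20, edgeR adjusted p = 0.00185). Part of its deposited counts, in 6 of 8 libraries, was not whole.

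Abcc1, a basolateral exporter of glutathione and leukotriene conjugates, was lower in the knockout. It stood at 60.7, 53.3, 65.0 and 84.7 CPM in wild type and at 31.1, 30.9, 48.9 and 48.1 CPM in the knockout. Every knockout library was below every wild-type one, and the gene fell 1.66-fold (log2 −0.73 ± 0.21, edgeR adjusted p = 0.0167). Abcc4, an exporter of cyclic nucleotides and prostaglandins, stood at 50.04, 44.8, 49.4 and 59.2 CPM in wild type and at 22.7, 25.6, 43.6 and 44.2 CPM in the knockout. Its groups did not overlap but it was not called (log2 −0.58 ± 0.23, edgeR adjusted p = 0.0599). With the replicate number as a block it was called lower (log2 −0.63, edgeR adjusted p = 0.0144), as it was under 6 other alternatives. Both genes were lowest in knockout replicates 1 and 2, the libraries with the highest enterocyte marker sums (119600 and 101300 CPM), whose part in these values was not tested. Abcc8, the sulphonylurea receptor of ATP-gated potassium channels, stood at 3.09 ± 0.994 and 2.69 ± 0.739 CPM (SD, n = 4; edgeR adjusted p = 0.647).

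Abce1 splits ribosomes after termination, and the Abcf proteins act on translating ribosomes and initiation. Abce1 (NCBI gene 24015) stood at 262, 299, 269 and 326 CPM in wild type and at 122, 161, 167 and 168 CPM in the knockout. It fell 1.87-fold with no overlap (log2 −0.90 ± 0.14, edgeR adjusted p = 0.00155). Abcf2 stood at 154, 149, 124 and 149.5 CPM in wild type and at 68.0, 82.9, 84.2 and 92.4 CPM in the knockout. It fell 1.76-fold, again with no overlap (log2 −0.81 ± 0.12, edgeR adjusted p = 0.00145). Abcf1, a partner of initiation factor eIF2, stood at 227, 203, 191 and 235 CPM in wild type and at 156, 167, 175 and 166 CPM in the knockout. It fell 1.29-fold (log2 −0.37 ± 0.11, edgeR adjusted p = 0.0226), a call lost without wild-type replicate 1 or 4 (edgeR adjusted p = 0.0696 and 0.0684). The call was also lost in replicates 1 to 3 alone (edgeR adjusted p = 0.0868). Abcf3 stood apart from these, at 45.0 ± 4.65 and 49.7 ± 3.18 CPM (SD, n = 4), with overlap and no call (edgeR adjusted p = 0.284).

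**Figure D3:**
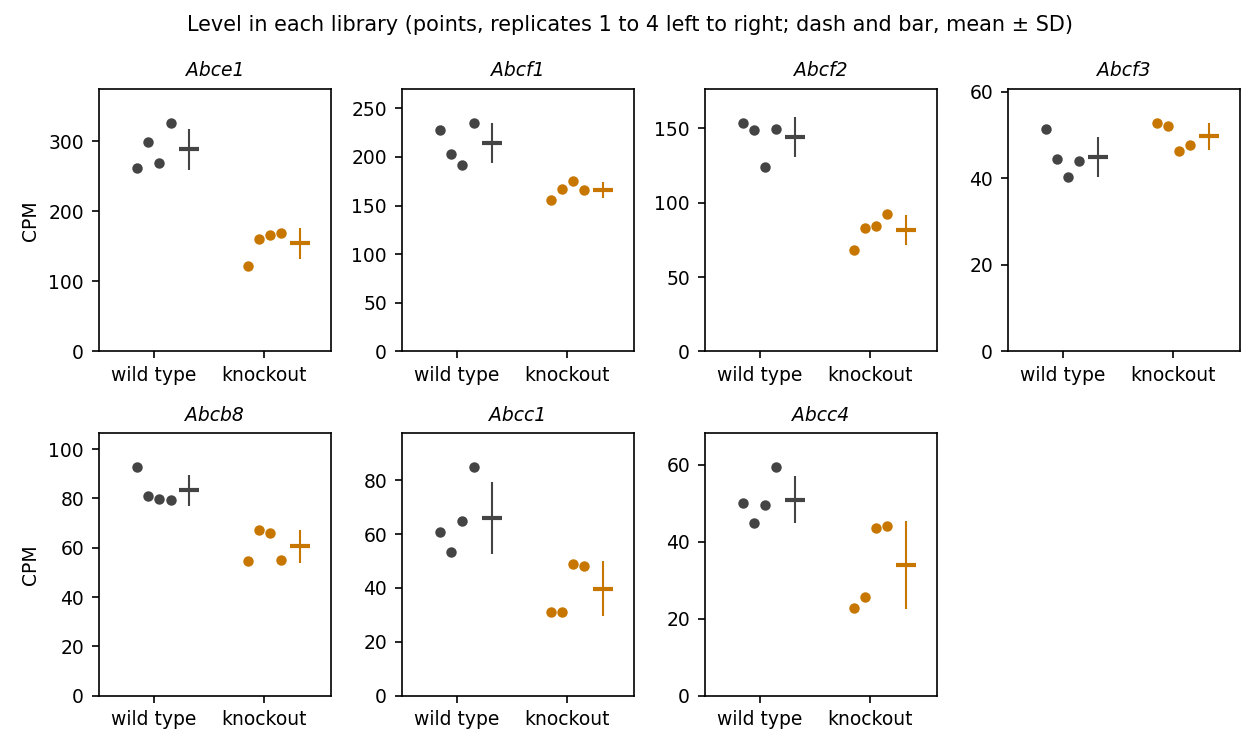
CPM (axis from 0) of 7 ABC members in the 4 wild-type (grey) and 4 knockout (orange) libraries, with the mean ± SD beside the points. Abce1, Abcf1, Abcf2, Abcb8, Abcc1 and Abcc4 are lower in every knockout library than in every wild-type library, while Abcf3 overlaps.

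Levels per length changed order between the genotypes. In wild type the most abundant members were Abce1 (86.1 ± 9.96 FPKM), Abcf1 (77.3 ± 6.92 FPKM) and Abcf2 (64.3 ± 3.32 FPKM; SD, n = 4), and the libraries of Abce1 and Abcf1 overlapped. Abcb8 (32.5 ± 2.06 FPKM) and Abcb1a (22.2 ± 8.07 FPKM) followed. In the knockout Abcb1a (126 ± 62.7 FPKM), Abcg5 (89.6 ± 23.3 FPKM), Abcg2 (55.2 ± 12.2 FPKM), Abcg8 (53.6 ± 17.0 FPKM) and Abcf1 (50.2 ± 8.81 FPKM) came first. Neighbours in this order overlapped in the range of their 4 libraries, but Abcg5 was above Abcg2 within each knockout library. The most abundant member was Abce1 in 3 wild-type libraries and Abcf1 in the other, and Abcb1a in 3 knockout libraries and Abcf1 in knockout replicate 3. Subfamilies E and F together with G make this change visible as shares of the summed FPKM of all 44 members. G took 3.33 to 11.9 percent of the wild-type sums and 28.2 to 36.0 percent of those of the knockout, E took 16.7 to 22.8 and 3.61 to 9.54 percent, and F took 34.5 to 39.2 and 10.5 to 22.5 percent. None of these 3 shares overlapped between genotypes. The share of C did overlap, at 9.05 to 13.7 percent and 10.4 to 12.6 percent, as did those of A and B. The summed FPKM itself was 430.1 to 447 in wild type and 499.6 to 728 in the knockout.

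**Figure D4:**
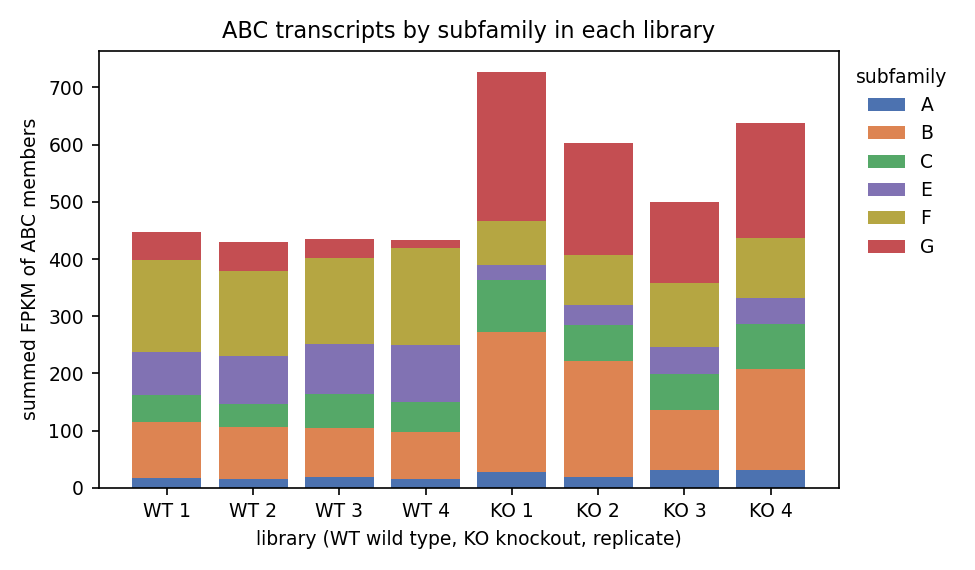
Summed FPKM of the 44 ABC members in each library (bar height), divided by subfamily (colours), for wild-type (WT) and knockout (KO) replicates 1 to 4. Subfamily G forms 3.33 to 11.9 percent of the wild-type bars and 28.2 to 36.0 percent of the knockout bars.

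The 13 members dropped by the low-count filter had 3 to 66 counts over all 8 libraries, at most 22 in any library, and a mean of at most 0.14 FPKM. They were Abca4, Abca6, Abca8a, Abca9, Abca13, Abca14, Abca15, Abca17, Abcb4, Abcb11, Abcc9, Abcc12 and Abcg4. Differences among them were not detectable at this depth, with 1 exception. Abca14 held 1, 1, 9 and 2 counts in wild type and 22, 8, 15 and 8 in the knockout, and in a fit without the filter it was called higher (edgeR adjusted p = 0.0179), although the groups overlapped in counts (not in CPM). Abca17, which lies head to head with Abca3 at a start site distance of 964 bases, had 3 counts in all where Abca3 had 4923.

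Levels of the higher members are set here beside enterocyte markers, library by library. Of the 13 higher members, 9 were lowest among wild-type libraries in replicate 4, which had the lowest enterocyte marker sum (3129 CPM), and 9 were lowest among knockout libraries in replicate 3, which had the lowest sum of its group (37280 CPM). In 5 of them (Abcb10, Abcb1a, Abcc2, Abcg5 and Abcg8) the whole order of the 4 knockout libraries was that of the enterocyte sum. The marker sum weighs genes by abundance, so a ratio to it is not a level per cell. Apoa1 alone held 2772 of 15500 CPM in wild-type replicate 1 and 22538 of 119600 CPM in knockout replicate 1. Per 1000 CPM of summed enterocyte markers, Abcg5 stood at 2.13 to 3.63 CPM in wild-type and 2.55 to 3.69 CPM in knockout libraries, and Abcb1a at 8.03 to 18.1 and 5.37 to 10.4 CPM. This ratio overlapped between genotypes in 7 of the 13 members, was lower in every knockout library in 6, among them Abcg2 (2.78 to 5.23 against 1.14 to 2.45 CPM) and Abcc5, and was higher in none. The 25 markers had a median log2 fold of 3.09, so a member that rose less tends to a lower knockout ratio by construction. Shares over all genes for these orders and ratios were not computed, so the counts describe the 13 members and set them apart from no other genes. Markers of goblet and tuft cells also moved, with 6 of 7 and 6 of 6 tested genes higher and sums of 1754 to 4359 against 8939 to 14660 CPM, and 13.9 to 26.1 against 53.4 to 69.9 CPM. Of 10 enteroendocrine markers 5 were higher and none lower, with sums of 376.9 to 674.6 against 676.6 to 897.2 CPM. None of 6 tested Paneth cell markers was called. Fibroblast markers summed to 105.8 to 249.6 CPM in wild-type and 285 to 332 CPM in knockout libraries, with 1 of 7 tested genes called (Fbln1), and the part of these cell types in the differences of the members was not tested.

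**Figure D5:**
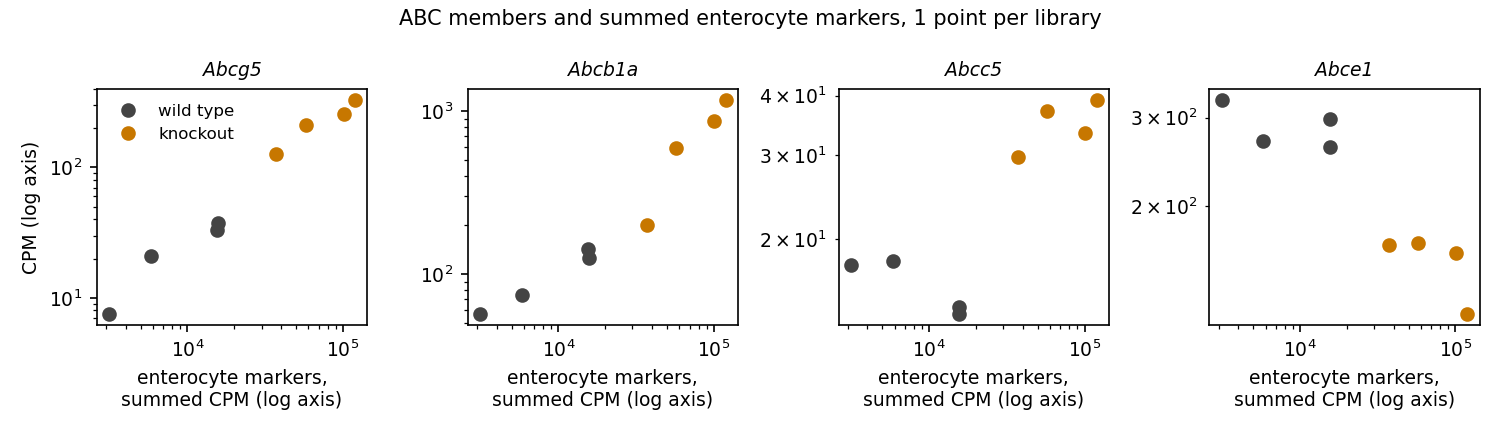
CPM of Abcg5, Abcb1a, Abcc5 and Abce1 (vertical, log axis) against the summed CPM of 25 enterocyte markers (horizontal, log axis), 1 point per library, wild type in grey and knockout in orange. Abcg5 and Abcb1a are lowest in the library with the lowest marker sum of each genotype, Abcc5 is separated by genotype, and Abce1 is lower in all 4 knockout libraries.

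Of the ABC genes that the symbol rule leaves out, the peroxisomal fatty acid transporter Abcd3 and the vitamin B12 transporter Abcd4 were among those that rose. Abcd3 and Abcd4 rose 1.75-fold and 1.49-fold, the second not called with total-count scaling or limma on log2 FPKM plus 1 and the first lost without knockout replicate 1 or 2. Of the peptide transporters that load MHC class I, Tap2 rose 1.67-fold (edgeR adjusted p = 0.0303, lost under 7 of 18 alternatives), while Tap1 stood at 129 ± 36.8 and 171 ± 31.9 CPM and was not called (edgeR adjusted p = 0.157). Cftr, the apical chloride channel, stood at 105 ± 14.8 and 125 ± 12.5 CPM (edgeR adjusted p = 0.135), and Abcd2 was dropped by the low-count filter.

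Genes that act with these pumps were read from the same fit, in which 24.2 percent of all tested genes were called higher and 23.1 percent lower. The lists overlap: Rxra is counted with the sterol and the xenobiotic genes, and Apoa1 with the sterol genes and the enterocyte markers. Of 12 genes of the LXR sterol receptors and sterol handling, 11 rose and 1 fell (9 and 1 with total-count scaling). The receptor Nr1h3 rose 6.62-fold, its partner Rxra 2.55-fold and Mylip, a ligase that degrades the LDL receptor, 4.59-fold, while the HDL receptor Scarb1 fell 2.21-fold. Of 17 xenobiotic receptors, enzymes and uptake carriers, 15 rose and none fell, also with total-count scaling. Among them were Cyp3a25 (56.1-fold) and Ugt1a1 (15.8-fold), which make the oxidised and glucuronidated compounds that such pumps export. All 7 bile acid carriers and regulators rose, although Slc10a2, the apical bile acid carrier, overlapped between the groups and lost its call under 3 of 18 alternatives. The others included Nr0b2 (13.1-fold), a repressor induced by bile acids, and the binding protein Fabp6 (56.9-fold). Of 7 tested genes of potassium channel pores and sphingolipid enzymes 6 rose, among them the ceramidase Asah2 (6.48-fold), Sgms2 (2.04-fold) and Ugcg (2.60-fold), and Smpd3 fell 1.55-fold.

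Partners of the mitochondrial and ribosomal members were also read, beside 24.2 percent of all tested genes called higher and 23.1 percent called lower. Of 14 iron-sulphur and haem genes, 4 fell (among them Nfs1, Glrx5 and Cpox, by 1.29-, 1.40- and 1.27-fold) and Alas1, the first enzyme of haem synthesis, rose 1.42-fold. With total-count scaling 7 of the 14 fell and none rose, in a setting that called 4011 of all genes lower, against 2976 with TMM. In the reported fit the share of this list that fell was near that of all genes, and the share that rose was below it. The calls of Nfs1, Glrx5, Cpox and Alas1 were lost under 4, 8, 13 and 10 of 18 alternatives. Of 9 tested genes of ribosome recycling and the eIF2 pathway, 5 fell and none rose: the eIF2 subunits Eif2s1, Eif2s2 and Eif2s3x (by 1.73-, 1.65- and 1.78-fold) and the termination factors Etf1 and Gspt1 (by 1.63- and 1.73-fold). With the replicate block 6 fell and 1 rose. Pelo and Hbs1l, the rescue factors that work with Abce1, were not called (edgeR adjusted p = 0.0638 and 0.325).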

How the data were processed

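The authors deposited 1 table holding, for every gene in each library, a read count and an expression value, per the file headers. From 8.04 to 9.18 percent of the deposited counts were not whole, so they were taken as estimated counts and rounded. The second deposited value, given by the authors without a unit, was taken as FPKM, since its ratio to the count follows gene and library total; it was used for levels between genes. The submitters' processing notes name HISAT2 and DESeq2 without a role. Counter, genome build, strandedness and dose were not given in the sources used here. Reads of overlapping genes on opposite strands may not be told apart.

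All 17634 genes entered edgeR 4.0.16 in R 4.3.3 (filterByExpr, TMM, glmQLFit, glmQLFTest, genotype alone, 4 libraries against 4), with Benjamini-Hochberg adjustment over 12908 tested genes and a threshold of 0.05. Folds compare knockout with wild type. SE is the log2 fold divided by the square root of F. On simulated data (12908 genes, 50 changed at each size, the same dispersion of 0.05 for every gene) the test recovered 8 percent of 1.5-fold and 56 percent of 2-fold changes. It recovered 98 percent of 4-fold and 98 percent of 8-fold changes, with 5 false calls and 12708 genes left unchanged. The data called 47.3 percent of genes, and spread differed between genes, so these rates do not carry over to the members. A member that was not called may still differ: Abcg3, at 2.33-fold, was not called. The closest libraries, wild-type replicates 1 and 2, differed by 6.42 times the sampling variance, so none was the same library sequenced again. This check cannot tell separate animals from separate preparations of the same tissue. Same-numbered libraries deviated together (r = 0.31 to 0.52 in the 4 pairs), against −0.48 to 0.45 for different numbers, so the numbers may pair the samples, though what they mark is unstated. The reported fit has no block, and a fit with it is among the alternatives. No label says that libraries are separate animals. By its Y-linked counts replicate 4 of each genotype came from other animals than replicates 1 to 3, while replicates 1 to 3 may share animals. The p-values then measure only spread among these libraries, part of which may be technical. Alternatives were other scalings, filters, DESeq2 1.42.0, limma 3.58.1 on log2 FPKM plus 1, a replicate block and leaving out libraries. Members and lists were chosen with earlier results of these data known. All called members are named with each library's level, members not called from a mean of 1 FPKM with a level, and up to 3 called genes of each list (all where 5 or fewer). Some genes of these sets enter the counts but are not reported here by name.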

Additional observations from a re-analysis of the deposited data

Results flagged for a closer look

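In 5 of 62 groups of 4 libraries (31 tested members in 2 genotypes) 1 library lay far from the other 3, by the ratio of its gap to the whole range (Dixon's 95% limit, which chance passes in about 1 in 20 groups). Abcc6 was highest in wild-type replicate 3 (ratio 0.940). Abcb8 was highest in wild-type replicate 1 (ratio 0.886), and its call held without that library. Abcc8 was lowest in knockout replicate 2 (ratio 0.881). Abcf2 was lowest in wild-type replicate 3 (ratio 0.846) and Abce1 in knockout replicate 1 (ratio 0.843), and both calls held without these libraries.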

How the results depend on the processing

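Of the 18 called members, 14 kept their call and direction under every alternative that tested them (up to 18). The others were Abca3, Abca7, Abcb9 and Abcf1. No member reversed with a call. Over all genes the median log2 fold, 0.034 with TMM, was −0.23 with total-count scaling and −0.19 with limma on FPKM. Genes called higher and lower were 3129 and 2976 with TMM, 2089 and 4011 with total-count scaling, and 2030 and 4320 with limma on FPKM. Members called higher and lower were 13 and 5 with TMM, 10 and 6 with total-count scaling, and 10 and 7 with limma on FPKM. Subfamily A then kept 1 call under either, from 3. The members' median log2 fold of 0.71 became 0.45 with total-count scaling, 0.36 with a mean of at least 50 counts (25 members), 0.057 with limma on FPKM (where the pseudocount shrinks low genes), 0.35 without knockout replicate 3, and 0.35 in replicates 1, 2 and 4 alone, an alternative chosen after seeing the data. Leaving out 1 library at a time gave 0.35 to 0.81. With the replicate block 13 members were higher and 6 lower, since Abcc4 was called, and the block changed no other member's call. The cause of these changes was not tested beyond what the construction of an alternative shows.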
